A study of Mus musculus with 38 samples.

Results

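The hairpin against Nkx2-1 was examined here in organoids that were also treated to delete Foxa1 and Foxa2. The time from treatment to RNA collection was not clear from the labels. The comparison rests on 4 of the 38 libraries of the study: 2 libraries labelled shNKX2-1 and 2 labelled shScramble, all treated with 2 uM 4-hydroxytamoxifen (4-OHT) for 72 hours. They were chosen by their hairpin and treatment labels, not by any measured value. All 4 came from line 1027B, an organoid line grown from 1 mouse lung adenocarcinoma on a mixed 129/B6 background and kept in Matrigel with L-WRN conditioned medium. Both groups carry the tumour alleles KrasFSF-G12D and p53frt, the recombinase allele Rosa-FSF-CreERT2, and Foxa1flox together with Foxa2flox, so that the only labelled difference between them is the hairpin. The shScramble libraries also received 4-OHT and therefore stand for the treatment that deletes the FoxA genes with Nkx2-1 left in place, not for untreated tumour cells. Another 2 shNKX2-1 and 2 shScramble libraries of this line were treated with ethanol vehicle, and their values are given where they bear on a result. Each group is thus 2 libraries of a single tumour line. The labels do not say whether those came from separate cultures, so p-values measure only the spread between these libraries.

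NKX2-1 is a homeodomain transcription factor that sets up and maintains lung epithelial identity and activates surfactant and other alveolar genes. FOXA1 and FOXA2 are forkhead factors that open chromatin and act with NKX2-1 at lung genes in some settings and at gastrointestinal genes in others. In mouse lung adenocarcinoma, deleting Nkx2-1 while the FoxA factors are present is known for a shift to gastric-type gene expression. The present comparison asks which genes differ when Nkx2-1 is reduced in cells treated to delete both FoxA genes.

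The 2 shNKX2-1 4-OHT libraries did not resemble each other closely. Mitochondrially encoded genes took 4.30% of counts in shNKX2-1 4-OHT replicate 1 and 11.7% in replicate 2, against 3.47% and 2.98% in the shScramble 4-OHT libraries. The median absolute log2 difference between the replicate libraries over all genes tested was 0.67 in shNKX2-1 4-OHT and 0.15 in shScramble 4-OHT. Across genes, log2 values of shNKX2-1 4-OHT replicate 1 correlated with r = 0.934 with its own replicate 2, against r = 0.968 and r = 0.962 with the 2 shScramble 4-OHT libraries. These r values are across genes, which are not independent replicates. Main results are therefore also given without shNKX2-1 4-OHT replicate 2, where the group is 1 library assumed to vary like the other groups. Total counts were 14.9 and 13.7 M (M, mega) in shNKX2-1 4-OHT and 16.0 and 15.0 M in shScramble 4-OHT.

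Nkx2-1 itself (chromosome 12, 56531958 to 56536908, minus strand, GRCm38) had 181 and 207 counts per M counts (CPM) in shNKX2-1 4-OHT, against 359 and 408 CPM in shScramble 4-OHT. Both hairpin libraries lay below both control libraries, and the hairpin mean was 0.507 of the control mean. The fitted log2 fold change was −0.98 (SE 0.22), and its adjusted p of 0.0763 (edgeR quasi-likelihood test, Benjamini-Hochberg over all genes) missed the threshold of 0.05. Without shNKX2-1 4-OHT replicate 2 the log2 fold change was −1.08, and whether Nkx2-1 passed depended on the setting, as given below. With vehicle, Nkx2-1 had 350 and 280 CPM in shNKX2-1 and 424 and 428 CPM in shScramble, a fitted log2 fold change of −0.44. The difference between the hairpin's effect with 4-OHT and with vehicle on Nkx2-1 was −0.55 on the log2 scale (SE 0.31, adjusted p = 0.866 in edgeR).

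Foxa2 had 1.89 and 0.327 CPM in shNKX2-1 4-OHT and 2.26 and 2.58 CPM in shScramble 4-OHT, whereas the vehicle libraries held 66.7 to 89.0 CPM. Foxa1 had 21.9 and 19.7 CPM in shNKX2-1 4-OHT and 20.1 and 18.5 CPM in shScramble 4-OHT, beside 22.1 to 34.1 CPM with vehicle. Foxa2 was thus low in all 4 libraries labelled 4-OHT, but the Foxa1 counts over the whole gene do not show its deletion. A transcript that lacks the floxed part can still give reads, and which part that is was not stated in the labels. Foxa3, the third member of the family, had 4.20 and 2.37 CPM in shNKX2-1 4-OHT and 2.88 and 1.68 CPM in shScramble 4-OHT. None of the Foxa genes was called between the 4-OHT groups, with adjusted p of 0.428 for Foxa2, 0.856 for Foxa1 and 0.577 for Foxa3 in edgeR.

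**Figure D1:**
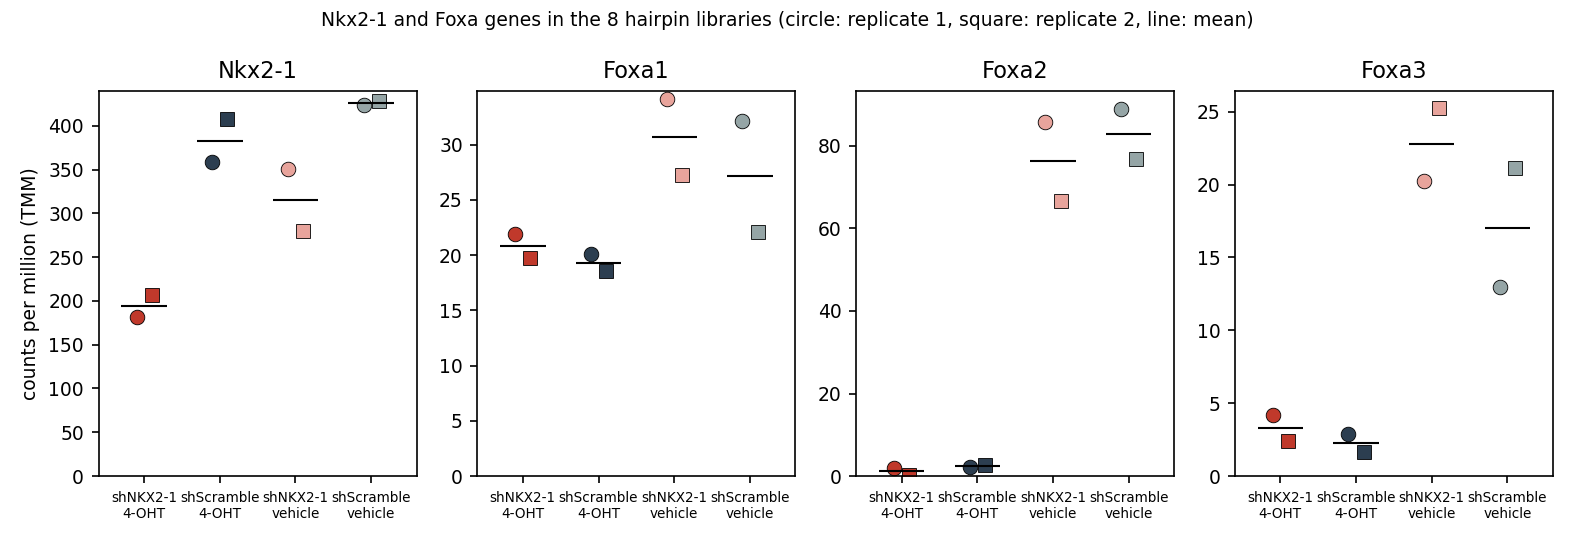
CPM (TMM-scaled, linear axes from 0) of Nkx2-1, Foxa1, Foxa2 and Foxa3 in the 8 hairpin libraries; circles are replicate 1, squares replicate 2 and lines group means. Nkx2-1 is at 181 and 207 CPM in shNKX2-1 4-OHT, below both shScramble 4-OHT libraries, and Foxa2 is under 3 CPM in all 4 libraries treated with 4-OHT.

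Of 14465 genes tested, 228 passed an adjusted p of 0.05 (edgeR) between shNKX2-1 4-OHT and shScramble 4-OHT. These were 140 higher, 0.968% of genes tested, and 88 lower, 0.608% of genes tested. The called changes were large: the median log2 fold change was 2.45 among higher and −2.86 among lower genes, and 100 higher and 69 lower genes changed by more than 4-fold. In all 228 the groups did not overlap, which for higher genes was true of 22% and for lower genes of 21.4% of all genes tested. Leaving out shNKX2-1 4-OHT replicate 2 gave 336 calls, 240 higher (1.59% of those tested) and 96 lower (0.637%), of which 195 were among the 228. The number of calls was fragile to the other libraries. It was 5758 without shNKX2-1 4-OHT replicate 1, 19 without shScramble 4-OHT replicate 1 and 0 without shScramble 4-OHT replicate 2 (923 genes then had an unadjusted p under 0.05). It was 127 and 129 without shNKX2-1 vehicle replicate 1 or 2, and 86 and 69 without shScramble vehicle replicate 1 or 2, although none of these vehicle libraries is in this contrast. In a fit of the 4 libraries treated with 4-OHT alone edgeR called 0 genes, with 1261 at an unadjusted p under 0.05. So every call below is lost in the fits without shScramble 4-OHT replicate 2 and with the 4-OHT libraries alone.

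Genes of the alveolar epithelium were among those lower with the Nkx2-1 hairpin. Surfactant protein B, the alveolar type 2 (AT2) product without which lungs cannot inflate, has the gene Sftpb (chromosome 6, 72304610 to 72314371, plus strand). Ager, which encodes the receptor RAGE, marks alveolar type 1 (AT1) cells (chromosome 17, 34597862 to 34600936, plus strand). Sfta2 encodes a small surfactant-associated protein and was among the 12 largest falls. Their promoter windows from RefSeq (GRCm38.p6), 250 bases before to 50 bases after the annotated start, are shown because these are the lung genes of that set that have a window. Capitals mark CTCAAG, the core of the NKX2-1 motif, and TGTTTGC, a forkhead motif, read on both strands, so that on the opposite strand they appear as CTTGAG and GCAAACA.
Sftpb, chr6:72304360-72304659, plus strand: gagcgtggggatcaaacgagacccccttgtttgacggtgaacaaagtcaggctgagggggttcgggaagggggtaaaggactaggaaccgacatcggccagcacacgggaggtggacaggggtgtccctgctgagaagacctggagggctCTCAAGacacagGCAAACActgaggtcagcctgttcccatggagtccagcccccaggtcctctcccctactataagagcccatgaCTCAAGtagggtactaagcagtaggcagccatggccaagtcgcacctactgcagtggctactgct
Sfta2, chr17:35649458-35649757, plus strand: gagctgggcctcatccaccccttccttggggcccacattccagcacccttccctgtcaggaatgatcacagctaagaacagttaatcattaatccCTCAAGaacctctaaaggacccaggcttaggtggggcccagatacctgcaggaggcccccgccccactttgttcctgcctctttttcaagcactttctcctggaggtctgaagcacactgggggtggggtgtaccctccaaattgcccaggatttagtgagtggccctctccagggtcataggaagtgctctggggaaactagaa
Ager, chr17:34597600-34597899, plus strand: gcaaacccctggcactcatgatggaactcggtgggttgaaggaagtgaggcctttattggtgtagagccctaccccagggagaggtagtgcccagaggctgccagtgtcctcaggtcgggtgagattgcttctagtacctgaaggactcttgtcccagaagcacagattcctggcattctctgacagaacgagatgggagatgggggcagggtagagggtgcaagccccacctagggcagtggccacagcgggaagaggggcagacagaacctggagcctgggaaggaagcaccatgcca
Sftpb held 2 copies of CTCAAG on its own strand, beginning 100 and 15 bases before the start, and 1 TGTTTGC on the opposite strand at 88 bases before it. Sfta2 held 1 CTCAAG, at 155 bases before the start, and Ager held no copy of either in this window. CTCAAG on either strand was present in 16.3% of 86 windows of the genes called lower, 17.6% of 125 windows of the genes called higher, 14.3% of 12781 windows of the genes tested and 15.9% of all 32851 windows. TGTTTGC was present in 3.49%, 4.80%, 3.71% and 5.07% of the same windows. A further forkhead form, TGTTTAC, was present in 1.16%, 5.60%, 2.79% and 3.65%. A match describes letters in a window and does not show binding.

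Sftpb had 233 and 101 CPM in shNKX2-1 4-OHT, against 2405 and 2239 CPM in shScramble 4-OHT. Both hairpin libraries lay well below both controls, and the mean was 13.9-fold lower (log2 −3.80, SE 0.51, adjusted p = 0.0176 in edgeR). Sfta2 had 9.47 and 5.32 CPM in shNKX2-1 4-OHT and 103 and 102 CPM in shScramble 4-OHT (log2 −3.78, SE 0.31, adjusted p = 0.00473). Ager had 17.1 and 2.54 CPM in shNKX2-1 4-OHT and 436 and 440 CPM in shScramble 4-OHT (log2 −5.47, SE 0.82, adjusted p = 0.0223). The 2 hairpin libraries of Ager differ widely from each other, yet both are far below the 2 nearly equal controls. Without shNKX2-1 4-OHT replicate 2 the fall of Ager was −4.68 with adjusted p = 0.00843, that of Sftpb −3.32 with adjusted p = 0.0180, and that of Sfta2 −3.43 with adjusted p = 0.00173.

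Napsa and Sftpc had only a few counts with the hairpin. Napsa (chromosome 7, 44572380 to 44586862, plus strand), the aspartic protease napsin A that processes surfactant protein B and is used as a lung adenocarcinoma marker, had 0.812 and 0.0818 CPM in shNKX2-1 4-OHT and 35.6 and 31.0 CPM in shScramble 4-OHT. That is 13 counts in the hairpin group against 1063 in the control group (log2 −6.13, SE 0.62, adjusted p = 0.00755 in edgeR). Sftpc, the surfactant protein C gene that is the classic AT2 marker, had 3 counts over shNKX2-1 4-OHT and 310 over shScramble 4-OHT. The ratio was 0.0112, with a 95% exact counting interval of 0.00234 to 0.0337 that covers counting error only. Sftpc was called with both hairpin libraries (adjusted p = 0.0223) but not without replicate 2 (adjusted p = 0.111). S100g, a calcium-binding protein of AT2 cells, had 9.95 and 7.61 CPM in shNKX2-1 4-OHT and 63.0 and 65.4 CPM in shScramble 4-OHT (log2 −2.87, SE 0.27, adjusted p = 0.00583).

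Of 25 AT2 markers, listed like the other sets with earlier results of these data known, 24 were tested. Of these, 4 were lower (S100g, Napsa, Sftpb and Sftpc) and 1 was higher, beside 0.608% and 0.968% of all genes tested. The higher one was Chil1, a chitinase-like secreted protein, with 91.2 and 63.8 CPM in shNKX2-1 4-OHT and 13.2 and 14.1 CPM in shScramble 4-OHT (log2 2.51, SE 0.46, adjusted p = 0.0381 in edgeR). The 19 other tested AT2 markers did not pass. Lyz2, the lysozyme of AT2 cells and macrophages, had 0 counts in both shNKX2-1 4-OHT libraries, against 8.08 and 3.68 CPM in shScramble 4-OHT (adjusted p = 0.0590). It was picked out after its values were seen, and its reads may be shared with its near-copy Lyz1. The lipid transporter Abca3 had 422 and 250 CPM in shNKX2-1 4-OHT and 406 and 466 CPM in shScramble 4-OHT, so the groups overlapped. Sftpd, surfactant protein D, also overlapped, with 401 and 123 CPM in shNKX2-1 4-OHT and 338 and 302 CPM in shScramble 4-OHT. In 12 of the 24 the groups did not overlap with the hairpin lower, beside 21.4% of all genes tested, and in 4 with it higher, beside 22%. The AT2 list was thus uneven, and its median log2 fold change was −0.67, beside 0.03 over all genes tested. That median depended on the library: against the shScramble mean it was −0.24 in shNKX2-1 4-OHT replicate 1 and −1.22 in replicate 2.

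Of 20 AT1 markers, 18 were tested, 3 were lower (Ager, Clic5 and Hopx) and 0 higher, beside 0.608% and 0.968% of all genes tested. Clic5, a chloride channel protein tied to the cytoskeleton, had 28.9 and 13.2 CPM in shNKX2-1 4-OHT and 118 and 108 CPM in shScramble 4-OHT (log2 −2.42, SE 0.39, adjusted p = 0.0287 in edgeR). Hopx, a homeodomain-only transcriptional cofactor of AT1 cells, had 18.7 and 7.61 CPM in shNKX2-1 4-OHT and 64.5 and 61.8 CPM in shScramble 4-OHT (log2 −2.26, SE 0.43, adjusted p = 0.0444). In 13 of the 18 the groups did not overlap with the hairpin lower, beside 21.4% of all genes tested, and in 3 with it higher, beside 22%. The list's median log2 fold change was −0.85, and against the shScramble mean it was −0.70 in replicate 1 and −0.84 in replicate 2. Single members differed far more between the 2 hairpin libraries than the median did: Limch1, an actin-binding protein, was at 1.28 in replicate 1 and −0.84 in replicate 2. The water channel Aqp5 had 1963 and 367 CPM in shNKX2-1 4-OHT and 2542 and 2117 CPM in shScramble 4-OHT, and did not pass (adjusted p = 0.481).

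**Figure D2:**
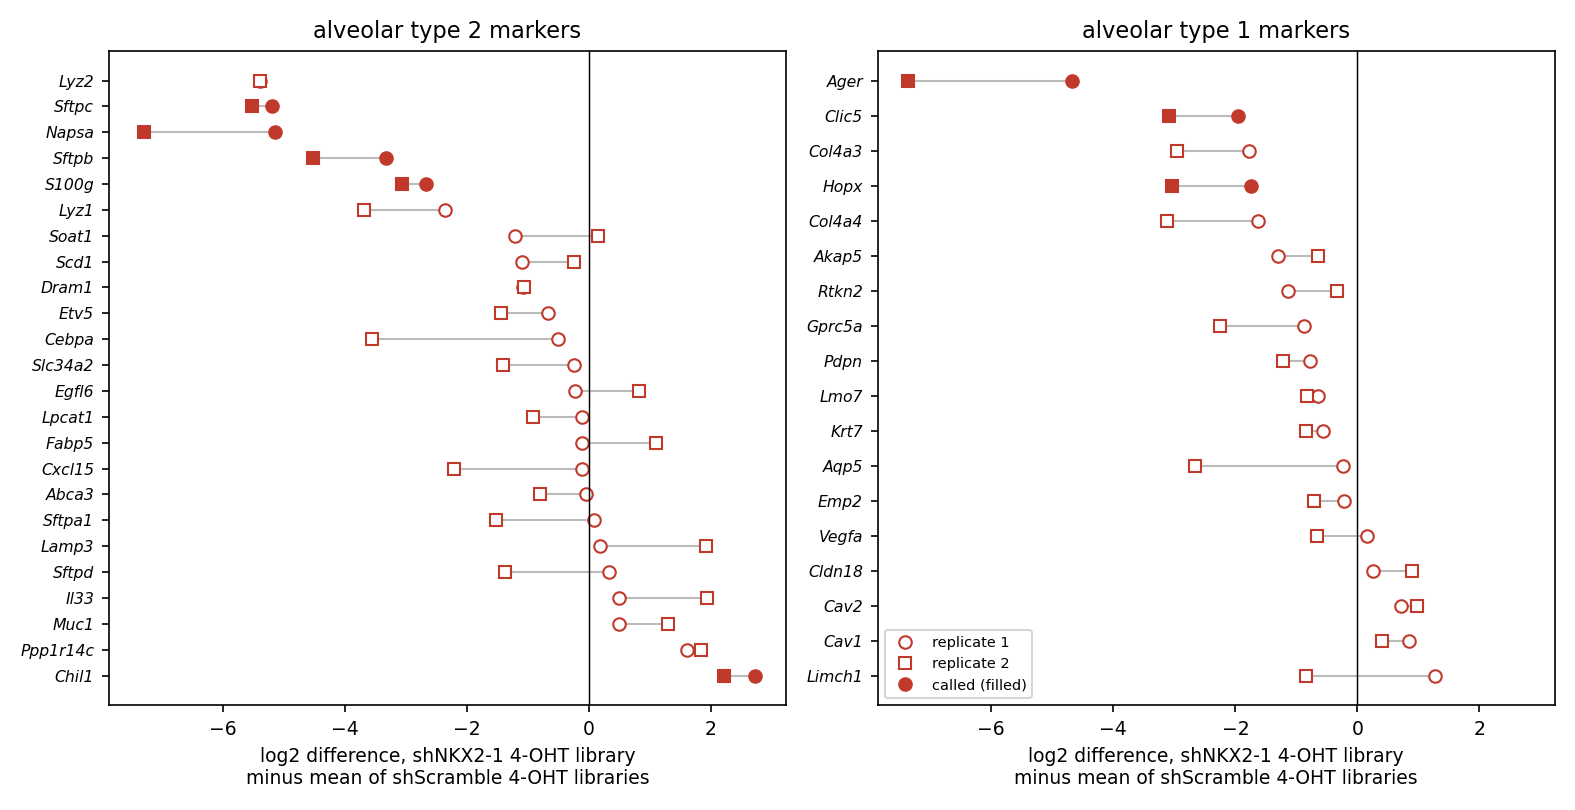
Log2 difference of each shNKX2-1 4-OHT library (circle replicate 1, square replicate 2) from the mean of the shScramble 4-OHT libraries for the tested AT2 (left) and AT1 (right) markers; filled symbols were called in the fit over all genes. Ager, Napsa, Sftpb and Sftpc lie far to the left in both libraries, while Abca3, Sftpd and Aqp5 differ between the 2 libraries.

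Of 20 genes listed as targets of Nkx2-1, 15 were tested, 4 were lower (Napsa, Sftpb, Sftpc and Hopx, all also in the alveolar lists) and 0 higher. Over all genes tested, 0.608% were lower and 0.968% higher. Cldn18, a lung tight junction claudin, had 72.2 and 113 CPM in shNKX2-1 4-OHT and 64.6 and 56.9 CPM in shScramble 4-OHT and did not pass (adjusted p = 0.497). The median over the 15 was −0.24 in shNKX2-1 4-OHT replicate 1 and −1.37 in replicate 2. Of the 20 markers of the embryonic lung tip, 17 were tested and 0 passed in either direction, and the same was true of the 6 tested ciliated and 2 tested neuroendocrine markers.

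The other largest falls held genes of several kinds. Rnf144a, a RING-type E3 ubiquitin ligase, had 0.880 and 1.47 CPM in shNKX2-1 4-OHT and 52.3 and 79.4 CPM in shScramble 4-OHT (log2 −5.81, SE 0.55, adjusted p = 0.00583 in edgeR). Sec14l3, a lipid-binding SEC14-like protein, had 1.89 and 0.982 CPM in shNKX2-1 4-OHT and 53.6 and 40.4 CPM in shScramble 4-OHT (log2 −5.00, SE 0.53). Chsy1, a chondroitin sulfate synthase, had 0.947 and 1.06 CPM in shNKX2-1 4-OHT and 14.0 and 20.2 CPM in shScramble 4-OHT (log2 −4.08, SE 0.35). All 3 had no overlap between groups by a wide margin, and stayed called without shNKX2-1 4-OHT replicate 2. Arg2, the mitochondrial arginase, fell by 3.96 on the log2 scale (SE 0.45), and Pla2g4f, a cytosolic phospholipase A2, by 3.85 (SE 0.60). Nebl, the actin-binding protein nebulette, fell by 3.93 (SE 0.68), but its adjusted p was 0.0878 without shNKX2-1 4-OHT replicate 2. Fgf2, the fibroblast growth factor that signals through FGF receptors, had 28.1 and 45.9 CPM in shNKX2-1 4-OHT and 331 and 341 CPM in shScramble 4-OHT (log2 −3.18, SE 0.29, adjusted p = 0.00538), and was picked out after its values were seen.

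Genes best known from mast cells were lower too. Tpsab1, a mast cell tryptase, had 0.880 and 0.164 CPM in shNKX2-1 4-OHT and 28.3 and 37.3 CPM in shScramble 4-OHT (log2 −5.90, SE 0.76, adjusted p = 0.0144 in edgeR). Hdc, the histidine decarboxylase that makes histamine, had 5.68 and 2.29 CPM in shNKX2-1 4-OHT and 67.6 and 98.3 CPM in shScramble 4-OHT (log2 −4.36, SE 0.44, adjusted p = 0.00755). Of the mast cell protease genes Mcpt1 and Mcpt2, picked out after their values were seen, Mcpt1 fell by 4.73 on the log2 scale (SE 0.84) and Mcpt2 by 3.25 (SE 0.51), and Mcpt2 was not called without shNKX2-1 4-OHT replicate 2. Reads of these proteases may be shared among close copies. A list of 14 mast cell genes was drawn up after these values were seen: its summed level was 14.7 and 10.96 CPM in shNKX2-1 4-OHT and 151 and 162 CPM in shScramble 4-OHT. Mrgprb2, also on it, was only slightly lower, with 5.55 and 5.65 CPM in shNKX2-1 4-OHT and 6.92 and 5.94 CPM in shScramble 4-OHT. In that list 7 genes, Cpa3, Kit, Fcer1a, Ms4a2, Cma1, Tpsb2 and Mrgprb1, had 0 counts in all 4 libraries treated with 4-OHT, among them the receptors that define mast cells.

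**Figure D3:**
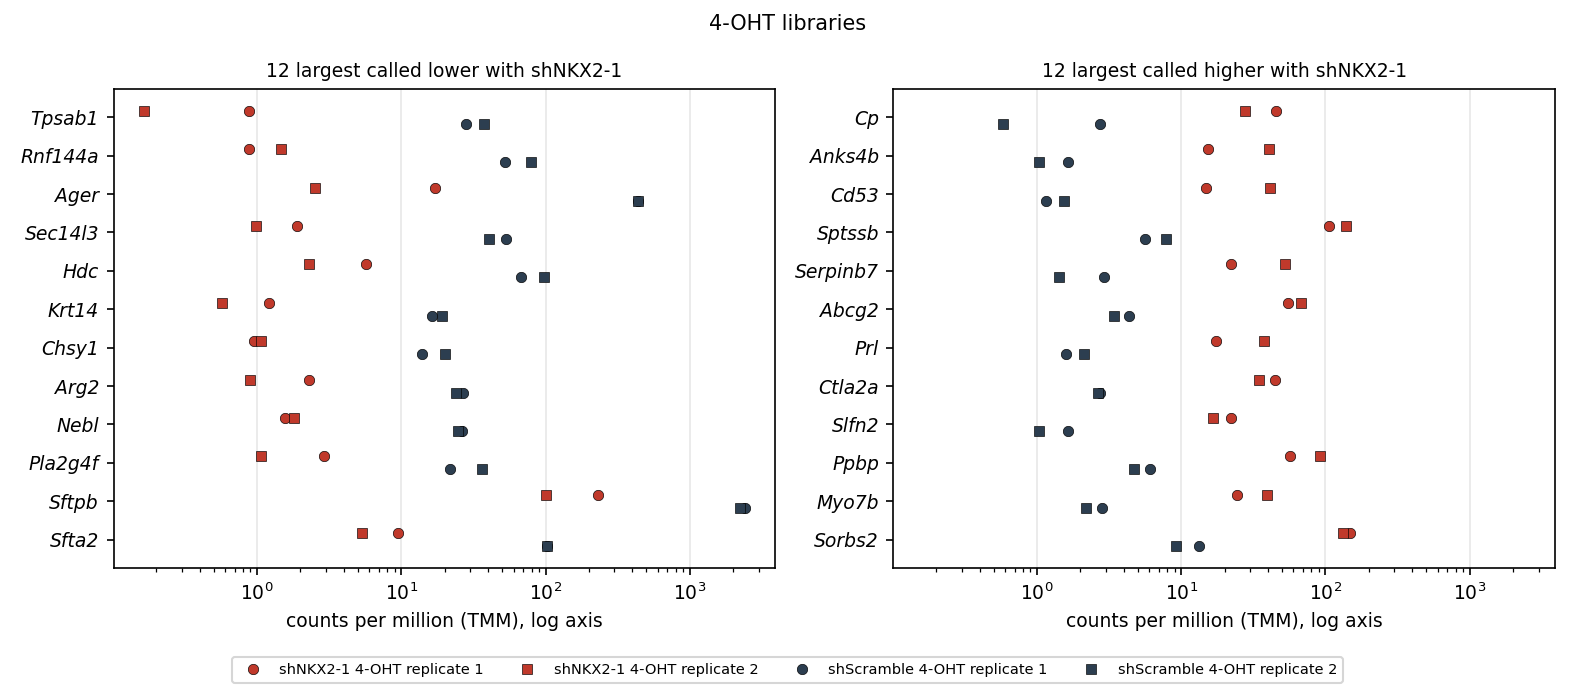
CPM (TMM-scaled, log axes) in the 4 libraries treated with 4-OHT for the 12 largest falls (left) and the 12 largest rises (right) by fitted change; circles are replicate 1 and squares replicate 2. In every gene both shNKX2-1 libraries lie on 1 side of both shScramble libraries, as the rule of choice required.

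The collagen IV pair Col4a1 and Col4a2, whose chains form the main network of basement membranes, fell together. Col4a1 had 60.5 and 20.4 CPM in shNKX2-1 4-OHT and 496 and 540 CPM in shScramble 4-OHT (log2 −3.68, SE 0.54, adjusted p = 0.0210 in edgeR). Col4a2, its neighbour on the opposite strand, had 66.3 and 20.9 CPM in shNKX2-1 4-OHT and 398 and 420 CPM in shScramble 4-OHT (log2 −3.23, SE 0.53, adjusted p = 0.0297). They were the 2 genes called among the 20 tested of 23 basement membrane and integrin genes, whose median was 0.02. Thus 2 were lower and 0 higher, beside 0.608% and 0.968% of all genes tested. The other collagen IV pair, Col4a3 and Col4a4, had log2 fold changes of −2.26 and −2.19 and did not pass. Among 8 tested of 20 mesenchymal transition genes, 1 was lower and 0 higher, beside 0.608% and 0.968% of all genes tested. The lower one was Sparc, a collagen-binding matrix protein. It had 147 and 89.4 CPM in shNKX2-1 4-OHT and 408 and 414 CPM in shScramble 4-OHT (log2 −1.80, SE 0.32, adjusted p = 0.0366), and 0.0510 without shNKX2-1 4-OHT replicate 2. Bgn, the matrix proteoglycan biglycan, picked out after its values were seen, rose. It had 406 and 390 CPM in shNKX2-1 4-OHT and 51.0 and 31.4 CPM in shScramble 4-OHT (log2 3.27, SE 0.36, adjusted p = 0.00908).

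Keratins and other genes of stratified epithelium moved in both directions. Of 25 squamous and basal genes, 13 were tested, 2 were higher and 2 lower, beside 0.968% and 0.608% of all genes tested. Krt4, a keratin of stratified mucosa, had 10.2 and 18.3 CPM in shNKX2-1 4-OHT and 0.367 and 0.129 CPM in shScramble 4-OHT (log2 5.78, SE 0.86, adjusted p = 0.0223 in edgeR). Krt14, a keratin of basal cells, went the other way, with 1.22 and 0.573 CPM in shNKX2-1 4-OHT and 16.3 and 19.2 CPM in shScramble 4-OHT (log2 −4.28, SE 0.47, adjusted p = 0.00908). Sprr1a, a cornified envelope protein, rose by 2.42 (SE 0.43) and Sfn, the 14-3-3 protein sigma, fell by 1.65 (SE 0.30), both on the log2 scale. Neither was called without shNKX2-1 4-OHT replicate 2, where adjusted p was 0.0626 for Sprr1a and 0.0547 for Sfn. Krt19, a keratin of simple epithelia, had 696 and 499.5 CPM in shNKX2-1 4-OHT and 1597 and 1400.2 CPM in shScramble 4-OHT (log2 −1.33, SE 0.25, adjusted p = 0.0444). The epithelial adhesion genes Epcam and Cdh1 did not pass, with log2 fold changes of 0.25 and −0.07.

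Among the 12 largest rises were Cp, the copper-carrying ferroxidase ceruloplasmin, and Abcg2, a drug efflux transporter. Cp had 45.3 and 27.7 CPM in shNKX2-1 4-OHT and 2.75 and 0.581 CPM in shScramble 4-OHT (log2 4.44, SE 0.62, adjusted p = 0.0198 in edgeR). Abcg2 had 55.2 and 67.2 CPM in shNKX2-1 4-OHT and 4.35 and 3.42 CPM in shScramble 4-OHT (log2 3.97, SE 0.30, adjusted p = 0.00456). Sptssb, a small subunit of serine palmitoyltransferase, the first enzyme of sphingolipid synthesis, had 105 and 139 CPM in shNKX2-1 4-OHT and 5.57 and 7.81 CPM in shScramble 4-OHT (log2 4.19, SE 0.42, adjusted p = 0.00755). Anks4b and Myo7b, both parts of the protein complex that links the microvilli of the brush border, rose by 4.38 (SE 0.54) and 3.65 (SE 0.45) on the log2 scale. Sorbs2, an actin-linked adaptor, had 148 and 132 CPM in shNKX2-1 4-OHT and 13.2 and 9.17 CPM in shScramble 4-OHT (log2 3.64, SE 0.26, adjusted p = 0.00456).

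The remaining large rises included secreted factors and genes better known from blood cells. Ppbp, a CXC chemokine of platelets, rose by 3.78 (SE 0.62) and Prl, the pituitary hormone prolactin, by 3.87 (SE 0.66) on the log2 scale. Cd53, a tetraspanin of leukocytes, had 15.0 and 41.6 CPM in shNKX2-1 4-OHT and 1.16 and 1.55 CPM in shScramble 4-OHT (log2 4.37, SE 0.72, adjusted p = 0.0298 in edgeR). Slfn2, a schlafen protein, rose by 3.84 (SE 0.40), Ctla2a, a cysteine protease inhibitor, by 3.87 (SE 0.42) and Serpinb7, a serine protease inhibitor, by 4.08 (SE 0.56). Slfn2, Ctla2a, Prl and Serpinb7 belong to families of close copies whose reads may be shared. All 12 largest rises stayed called without shNKX2-1 4-OHT replicate 2. The pan-leukocyte gene Ptprc had 0.609 and 1.31 CPM in shNKX2-1 4-OHT and 3.18 and 2.78 CPM in shScramble 4-OHT. The summed level of the 10 leukocyte markers was 10.8 and 9.08 CPM in shNKX2-1 4-OHT and 17.6 and 15.9 CPM in shScramble 4-OHT, and Tyrobp and Adgre1 were among its genes with 0 counts in all 4. The 8 fibroblast markers summed to at most 0.551 CPM and the 8 endothelial markers to at most 0.645 CPM in any of the 4. The epithelial marker Epcam had 384 and 506 CPM in shNKX2-1 4-OHT and 366 and 380 CPM in shScramble 4-OHT. In bulk RNA, fewer cells of a type and less RNA per cell cannot be told apart.

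Airway secretory genes were split in direction. Among 13 tested of 18, 2 were called higher and 0 lower, beside 0.968% and 0.608% of all genes tested. The fitted change was higher in 6 and lower in 5, and 2 had no count in the libraries treated with 4-OHT. The groups did not overlap in 5 with the hairpin higher, beside 22% of all genes tested, and in 3 with it lower, beside 21.4%. Muc5ac was among those lower (log2 −1.74, adjusted p = 0.131 in edgeR). Lcn2, the iron-siderophore-binding lipocalin 2, had 2995 and 1015 CPM in shNKX2-1 4-OHT and 259 and 122 CPM in shScramble 4-OHT (log2 3.40, SE 0.56, adjusted p = 0.0298 in edgeR). Gabrp, a GABA receptor subunit of secretory epithelium, had 46.7 and 70.2 CPM in shNKX2-1 4-OHT and 6.92 and 6.07 CPM in shScramble 4-OHT (log2 3.17, SE 0.57, adjusted p = 0.0366), and 0.0625 without shNKX2-1 4-OHT replicate 2. Dmbt1, a mucosal scavenger protein, was picked out after its values were seen. It had 13.4 and 31.4 CPM in shNKX2-1 4-OHT and 0.857 and 0.452 CPM in shScramble 4-OHT (log2 5.07, SE 0.59, adjusted p = 0.0104). Among 14 liver plasma protein genes, 6 of them tested, 1 was higher and 0 lower, beside 0.968% and 0.608% of all genes tested. The higher one was Apob, the apolipoprotein of hepatic and intestinal lipoproteins. It had 11.03 and 4.99 CPM in shNKX2-1 4-OHT and 1.41 and 1.29 CPM in shScramble 4-OHT (log2 2.57, SE 0.42, adjusted p = 0.0297).

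Gastric and intestinal genes were not called in either direction with both hairpin libraries, and 1 of them, Vil1, was called higher without shNKX2-1 4-OHT replicate 2. Vil1, the microvillar actin-binding protein villin, had 29.2 and 13.2 CPM in shNKX2-1 4-OHT and 12.4 and 8.78 CPM in shScramble 4-OHT. Its log2 fold change was 1.01 (SE 0.37, adjusted p = 0.278 in edgeR) with both libraries and 1.47 (adjusted p = 0.0205) without replicate 2. Of 29 listed, 18 were tested, and 5 of these (Gkn2, Gkn3, Pgc, Tff1 and Tff2, gastrokines, a pepsinogen and trefoil peptides) had no count in the 4 libraries treated with 4-OHT. With both hairpin libraries the intestinal cadherin Cdh17 came nearest, with 2.77 and 3.11 CPM in shNKX2-1 4-OHT and 0.612 and 0.387 CPM in shScramble 4-OHT (adjusted p = 0.0648 in edgeR). Anks4b and Myo7b, called above, were not on this list. Beside this list and those that follow, 0.608% of all genes tested were called lower and 0.968% higher. At such low shares, a list without a call does not show that its genes were unchanged. Dlc1, a GTPase-activating protein, was the 1 gene called among 16 YAP and TEAD target genes, with a log2 fold change of −2.09 (SE 0.39, adjusted p = 0.0426, and 0.0760 without shNKX2-1 4-OHT replicate 2). On that list Crim1, a transmembrane protein that binds bone morphogenetic proteins, had a log2 fold change of 1.48 (adjusted p = 0.0538) and was called without that library (1.80, adjusted p = 0.00869). No gene passed among the 28 cell cycle, 19 MAPK feedback, 22 interferon response, 14 antigen presentation, 20 NF-kB and chemokine, 26 lipid synthesis, 22 hypoxia and glycolysis, 9 Wnt target, 12 EGF family, 23 epithelial junction, 22 unfolded protein and integrated stress response and 13 oxidative and mitochondrial stress genes tested.

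The 2 shNKX2-1 4-OHT libraries differed from each other in several lists. The median log2 difference of cell cycle genes from the shScramble mean was −0.85 in replicate 1 and −0.03 in replicate 2. In 14 of these 28 genes the groups did not overlap with the hairpin lower, beside 21.4% of all genes tested. In 0 of them was it higher without overlap, beside 22%. The proliferation marker Mki67 had 201 and 975 CPM in shNKX2-1 4-OHT and 413 and 530 CPM in shScramble 4-OHT, so that the hairpin libraries lay on either side of the controls. The 13 mitochondrially encoded genes were all higher without overlap, beside 22% of all genes tested, and none was called. Their medians were 0.48 in replicate 1 and 2.50 in replicate 2. They make up nearly all of the mitochondrial share given above, so they do not count as 13 separate observations. Antigen presentation genes had medians of −0.01 and −0.93. Lgr5, a Wnt target and stem cell receptor, had 4.06 and 69.3 CPM in shNKX2-1 4-OHT and 0.184 and 1.10 CPM in shScramble 4-OHT, and did not pass (adjusted p = 0.210 in edgeR). The part of the mitochondrial share in these differences was not tested. Leaving all mitochondrially encoded genes out of the counts gave 232 calls, and all 228 were among them.

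**Figure D4:**
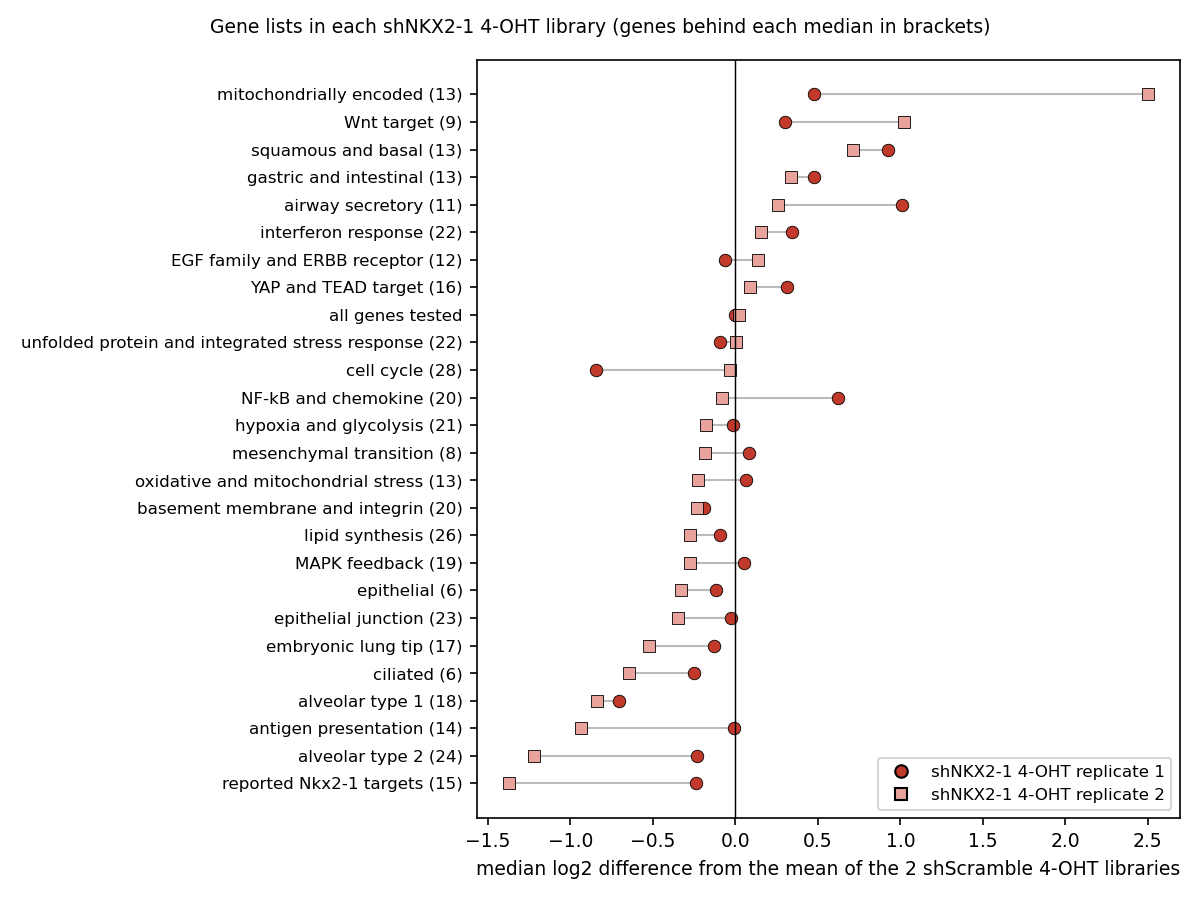
Median log2 difference of gene lists from the mean of the shScramble 4-OHT libraries, for shNKX2-1 4-OHT replicate 1 (dark circle) and replicate 2 (light square), with the number of genes in brackets. Lists with few genes counted (neuroendocrine, liver plasma protein, fibroblast, endothelial, leukocyte and mast cell) are not drawn. The medians of the AT1 list lie close together (−0.70 and −0.84), whereas those of mitochondrially encoded (0.48 and 2.50) and cell cycle genes (−0.85 and −0.03) lie apart.

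The same hairpin was also measured in the vehicle-treated libraries, where no deletion of Foxa1 and Foxa2 was induced. Of the 228 genes, 204 had a fitted change of the same sign with vehicle (127 of the 140 higher and 77 of the 88 lower), beside 57.3% of all genes tested. The change with vehicle was smaller in size for 207 of the 228, with a median of 0.99 among the higher and −1.01 among the lower genes. Because the 228 were chosen on the change with 4-OHT, the sign and size with vehicle are a description only. The 57.3% is over all genes tested, which were not chosen on a large change, so the sets are unlike. The test of the difference between the hairpin's effect with 4-OHT and with vehicle called 0 genes in edgeR (782 at an unadjusted p under 0.05), and 89 with DESeq2. Leaving out shNKX2-1 4-OHT replicate 2 gave 7 such genes and leaving out replicate 1 gave 3552.

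Individual genes varied in how far the hairpin moved them with vehicle. Ager had 160 and 71.3 CPM in shNKX2-1 vehicle and 318 and 271 CPM in shScramble vehicle, a log2 fold change of −1.35 beside −5.47 with 4-OHT. Sftpb changed by −0.83 with vehicle beside −3.80 with 4-OHT, and Sptssb by 0.27 beside 4.19. The difference had an adjusted p of 0.463 for Ager, 0.447 for Sftpb and 0.159 for Sptssb in edgeR, so that none passed. Other genes changed by similar amounts with either treatment: Lcn2 by 3.54 with vehicle and 3.40 with 4-OHT, Abcg2 by 3.73 and 3.97, and Sorbs2 by 3.17 and 3.64. Krt14 was nearly absent from the vehicle libraries, at 0.439 and 0.438 CPM in shNKX2-1 and 0.413 and 0.203 CPM in shScramble. Apob changed by 4.99 with vehicle and 2.57 with 4-OHT. Over whole lists the median log2 fold change was −0.69 with vehicle and −0.85 with 4-OHT for AT1 markers. It was −0.23 and −0.67 for AT2 markers, and −0.46 and −0.37 for the genes listed as targets of Nkx2-1.

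**Figure D5:**
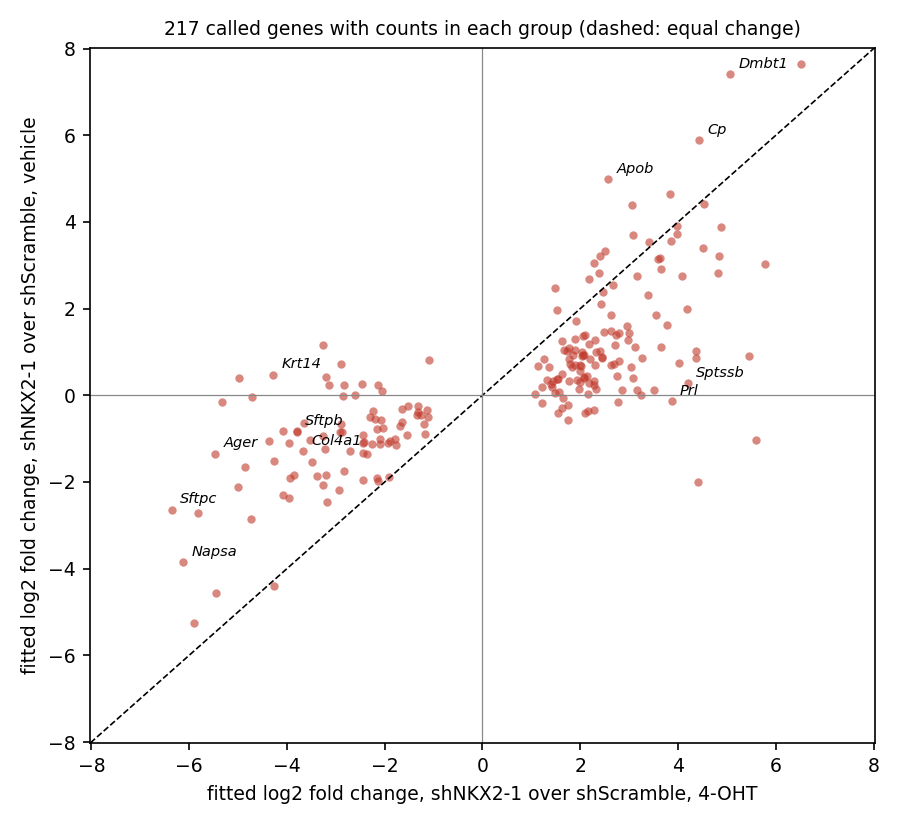
Fitted log2 fold change of shNKX2-1 over shScramble with 4-OHT (horizontal axis) and with vehicle (vertical axis) for the 217 called genes with counts in each of the 4 groups; the dashed line marks equal change, and 11 called genes with a group at 0 counts are not drawn. Of all 228 called genes, 207 changed less with vehicle than with 4-OHT, as did Ager (−5.47 and −1.35) and Sptssb (4.19 and 0.27).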

How the data were processed

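Gene-level raw read counts from bulk RNA sequencing of organoids were analysed as deposited by the authors in the table of the hairpin experiment. Tools listed in the submitters' processing notes are featureCounts 1.5.1, STAR 2.7.6a and DESeq2, with the build GRCm38, and no role is stated for any. Libraries were prepared with a directional kit from column-purified RNA, per the labels' protocols. Strand and multi-mapping settings were not stated there, so close copies and overlapping genes are uncertain. The table lists 55487 IDs, of which 99.4% had a symbol.

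Genes were kept by filterByExpr and tested in R 4.3.3 with edgeR 4.0.16 (TMM, quasi-likelihood F test, Benjamini-Hochberg) in 1 fit of 4 group means over 8 libraries, so that all groups share 1 estimate of the spread. Vehicle libraries enter that fit and the interaction. CPM are TMM-scaled, and log2 differences of single libraries add a prior count of 2. SE are derived from the F statistic. List medians leave out genes with no count in the 4 libraries treated with 4-OHT.

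Named genes were the 12 largest called per direction with a mean log2 CPM of at least 2 and no overlap between groups, up to 4 called members per list (2 in the direction with fewer calls), Nkx2-1 and the Foxa genes. The members and the lists were chosen with earlier results of these data known. Replicate numbers are names only. Alternatives were DESeq2 1.42.0, limma 3.58.1 voom with quality weights, other normalisation, filters and left-out libraries. The code was tested on simulated data.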

Additional observations from a re-analysis of the deposited data

How the results depend on the processing

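Counts of called genes depended on the libraries and the tool. Leaving out 1 library at a time gave 0 to 5758 genes for shNKX2-1 4-OHT over shScramble 4-OHT, 0 to 3552 for the difference between treatments, and −1.08 to −0.90 for the log2 fold change of Nkx2-1. For shNKX2-1 4-OHT over shScramble 4-OHT, DESeq2 called 704 genes, limma voom with sample quality weights 48, no filter on low counts 1058, a test against a minimum log2 fold change of 1 45, and the 4-OHT libraries alone 0, beside 228. RLE normalisation and leaving out mitochondrially encoded genes each gave 232. For the difference between treatments, DESeq2 called 89 and no filter on low counts 227, beside 0. Among the fits that kept every library, Nkx2-1 passed the threshold with DESeq2 (log2 −0.97, adjusted p = 0.00320) and with no filter (−0.999, adjusted p = 0.0169). Leaving out a shNKX2-1 4-OHT library leaves 1 in that group, so only the effect size is given for Nkx2-1. It was −1.08 without replicate 2 and −0.90 without replicate 1. The causes were not tested. The voom quality weights were 0.205 and 0.197 for the shNKX2-1 4-OHT libraries and 3.14 and 3.12 for the shScramble 4-OHT libraries.

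None of the 67 genes followed through the 15 alternatives reversed its direction. Other genes mentioned here were not followed, and some did reverse. Without shNKX2-1 4-OHT replicate 2, the log2 fold change of Sftpd went from −0.29 to 0.33 and that of Mki67 from 0.32 to −1.23. Of 62 named genes called, DESeq2, RLE normalisation and no filter kept 62, voom kept 22, the minimum fold change 25, the fit without shNKX2-1 4-OHT replicate 2 kept 53, without shScramble 4-OHT replicate 1 kept 11, and without shScramble 4-OHT replicate 2 or with the 4-OHT libraries alone 0. The other scaling moved the median of all genes from 0.03 to 0.05 on the log2 scale. No paired analysis was possible because the labels give each library a running number only, and no replicate number, culture, day or batch that would pair them across groups.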

Other observations

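Further called genes, chosen after their values were seen, extend the description of shNKX2-1 4-OHT against shScramble 4-OHT. Ctsh, the lysosomal protease cathepsin H that takes part in processing surfactant proteins B and C, rose while the genes of those surfactants fell. It had 452 and 389.6 CPM in shNKX2-1 4-OHT and 179 and 183 CPM in shScramble 4-OHT (log2 1.22, SE 0.21, adjusted p = 0.0341 in edgeR). With vehicle, Ctsh had 448 and 453 CPM in shNKX2-1 and 472 and 542 CPM in shScramble, so shScramble 4-OHT was the low group. Spp1, the secreted matrix phosphoprotein osteopontin, had 1161 and 1806 CPM in shNKX2-1 4-OHT and 190.5 and 346 CPM in shScramble 4-OHT (log2 2.47, SE 0.38, adjusted p = 0.0247). Muc20, a membrane mucin, rose by 1.86 on the log2 scale (SE 0.34), Igfbp4, a binding protein of insulin-like growth factors, by 2.07 (SE 0.30), and Tns4, a focal adhesion protein, by 1.99 (SE 0.27). Cfi, the complement protease factor I, had 119 and 115 CPM in shNKX2-1 4-OHT and 24.3 and 20.3 CPM in shScramble 4-OHT (log2 2.39, SE 0.21, adjusted p = 0.00538). Cdhr2, a cadherin of the same microvillar complex as Anks4b and Myo7b, was higher but low in both 4-OHT groups. It had 1.49 and 1.06 CPM in shNKX2-1 4-OHT and 0.306 and 0.258 CPM in shScramble 4-OHT (log2 2.15, SE 0.40, adjusted p = 0.0434 in edgeR). With vehicle, Cdhr2 had 59.1 and 44.4 CPM in shNKX2-1 and 68.7 and 63.5 CPM in shScramble.

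A few receptors and ligands of interleukin 1 and interleukin 6 family signalling, also chosen after their values were seen, were among the rises. The receptor Il1r1 had 216 and 254 CPM in shNKX2-1 4-OHT and 62.8 and 55.7 CPM in shScramble 4-OHT (log2 1.99, SE 0.22, adjusted p = 0.00901 in edgeR). Its natural antagonist Il1rn rose by 2.63 on the log2 scale (SE 0.38, adjusted p = 0.0210). Lifr, the receptor of leukaemia inhibitory factor, had 2.03 and 3.11 CPM in shNKX2-1 4-OHT and no count in shScramble 4-OHT, at least 26.7-fold higher against a floor of 3 counts over the control group. Osmr, the oncostatin M receptor, had 126 counts in the shNKX2-1 4-OHT group and 5 in the shScramble 4-OHT group (adjusted p = 0.0475, and 0.0852 without shNKX2-1 4-OHT replicate 2). Of the 4 kallikrein-related protease genes tested, Klk13 fell by 3.49 (SE 0.47), Klk10 by 3.66 (SE 0.59) and Klk14 by 2.45 (SE 0.38) on the log2 scale. Klk6 had a log2 fold change of 1.33 (SE 0.56) and did not pass (adjusted p = 0.366). Reads of these may be shared among close copies. Gja1, the gap junction protein connexin 43, fell by 1.93 (SE 0.30), and Dysf, the membrane repair protein dysferlin, by 2.83 (SE 0.40). No list of these groups was tested as such.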
